A study of Mus musculus and Homo sapiens with 18 samples.

Results

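*Qk* and 4 related RNA-binding genes, *Khdrbs1*, *Khdrbs2*, *Khdrbs3* and *Sf1*, were followed through 3 experiments in which *Qk* or its human counterpart *QKI* was the targeted gene. The 5 genes were taken by symbol (human *QKI*, *KHDRBS1*, *KHDRBS2*, *KHDRBS3* and *SF1*) and all 5 were listed in each of the 3 gene tables, which hold 46882 genes for the lens, 54838 for the NLPCs and 60880 for HLE-B3 cells. The questions were at what level each gene was expressed in every library, and whether any of the other 4 was higher where *Qk* was the deleted gene.

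For the lens, RNA was taken at P17-19 from the lenses of 3 control mice (Ctrl; *Nestin*-CreERT2; *Qk* L/+) and 3 *Qk*-iCKO mice (*Nestin*-CreERT2; *Qk* L/L). Both groups carried the Cre, which the *Nestin* promoter drives and tamoxifen activates, and both received tamoxifen on P7 and P8, so the controls had 1 floxed allele exposed to Cre. The NLPCs, which the study uses as lens progenitor-like cells, were derived from cultured neural stem cells of newborn *Nestin*-CreERT2; *Qk* L/L mice. They were treated with Noggin for 6 days and with bFGF, BMP4 and BMP7 for 12 days, and 3 libraries are labelled WT and 3 *Qk*-/-, the deletion having been induced with 100 nM 4-hydroxytamoxifen. HLE-B3 is a human lens epithelial cell line, sequenced as 3 WT libraries and 3 libraries of *QKI* KO cells made with CRISPR-Cas9 and selected with puromycin; whether the KO cells are 1 clone or a pool is not given in the sources used here. The study states that at least 3 biological replicates were used for its cell experiments, and the labels do not say how each NLPC or HLE-B3 library was obtained, so the p-values measure the spread between these libraries.

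The 5 genes belong to the STAR (signal transduction and activation of RNA) family, whose proteins bind RNA through a KH domain flanked by conserved QUA regions; SF1 has the KH domain and only the QUA region that follows it. Qki is best known from glia, where it controls the splicing, export, stability and translation of myelin mRNAs. Sam68, the product of *Khdrbs1*, is a widely expressed splicing regulator that Src-family kinases phosphorylate, *Khdrbs2* and *Khdrbs3* encode its relatives SLM1 and SLM2, which are known from neuronal splicing, and SF1 recognises the branch point at the start of spliceosome assembly. Qki and SF1 bind closely similar sequences built around ACUAA.

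In the mouse, the *loxP* sites flank exon 2 of *Qk*. On GRCm38, *Qk* lies on the minus strand at chr17:10202601-10319854, and no other annotated gene overlaps it. Exon 2 lies at chr17:10282839-10282981 and is part of 4 of the 6 annotated transcripts. It is shown because it is the part of the gene that the deletion removes, with exon 2 in capitals and 20 bases of the neighbouring exons of transcript Qk-201 in lower case.
Qk exon 2: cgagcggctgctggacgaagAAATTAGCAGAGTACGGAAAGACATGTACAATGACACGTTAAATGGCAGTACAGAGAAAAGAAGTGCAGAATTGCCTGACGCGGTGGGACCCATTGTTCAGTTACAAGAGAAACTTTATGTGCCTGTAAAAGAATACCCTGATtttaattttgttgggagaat
The exon has 143 bases, which leaves a remainder of 2 on division by 3, and makes up 1.00% of the 14242 bases of the merged exons. A count per gene therefore cannot show whether exon 2 was present: transcripts without it are still counted as *Qk*.

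The lens libraries held 10319320 to 16425331 counts, the NLPC libraries 28154202 to 68243360 and the HLE-B3 libraries 69190864 to 81384471. Values are given as CPM (counts scaled to a total of 1000000 per library), with library sizes scaled by TMM factors, and levels of different genes are compared as CPM per kb of merged exons. *Qk*-iCKO lens 1 stood apart with a TMM factor of 1.48 (0.888 to 0.962 in the other 5 lenses), and *Qk*-/- library 2 of the NLPCs had a mean correlation of 0.892 with the other 5, which each had a mean of 0.948 to 0.957. Of the lenses, *Qk*-iCKO 2 and 3 held 1051 and 930 counts on 4 Y-linked genes and the other 4 held 0 to 3, so the groups also differ in these genes. The marker lists matched the label of the lens: lens fibre genes summed to 362851 to 379543 CPM in Ctrl and 174178 to 324913 CPM in *Qk*-iCKO lenses. In the cultures lens fibre genes were near 0. In the NLPCs the 11 lens fibre genes summed to 0.81 to 4.75 CPM, with *Birc7* at 0 and the crystallins *Cryaa* and *Crybb2* at no more than 0.615 and 0.024 CPM, while the 7 lens epithelium genes summed to 406 to 441 CPM, with *Pax6* at 80.2 to 88.0 CPM and the crystallin *Cryab* at 61.3 to 70.1 CPM in WT and 11.7 to 29.6 CPM in the libraries labelled *Qk*-/-. *Cdh2* was the largest part of that lens epithelium sum, at 262 to 298 CPM in WT and 294 to 315 CPM with the *Qk*-/- label. *Foxe3* and *Pitx3* were at no more than 0.018 and 0.205 CPM. *Gja1* was at 1.23 to 2.77 CPM, and *Cdh1* at no more than 0.071 CPM in WT and 2.36 CPM with the *Qk*-/- label. The 7 astrocyte and neural stem cell genes summed to 4320 to 7191 CPM. In HLE-B3 cells *CRYAA* and *CRYBA1* were at 0, and the 7 lens epithelium genes summed to 1519 to 1797 CPM, with *PAX6* at 127 to 155 CPM. The largest parts of that sum were *CDH2* (760 to 799 CPM in WT, 456 to 467 CPM in *QKI* KO) and *CRYAB* (479 to 570 and 874 to 1015 CPM). *GJA1* was at 114 to 137 CPM in WT and 178 to 180 CPM in *QKI* KO cells. *FOXE3*, *PITX3* and *CDH1* were at no more than 0.137, 0.082 and 0.355 CPM.

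**Figure D1:**
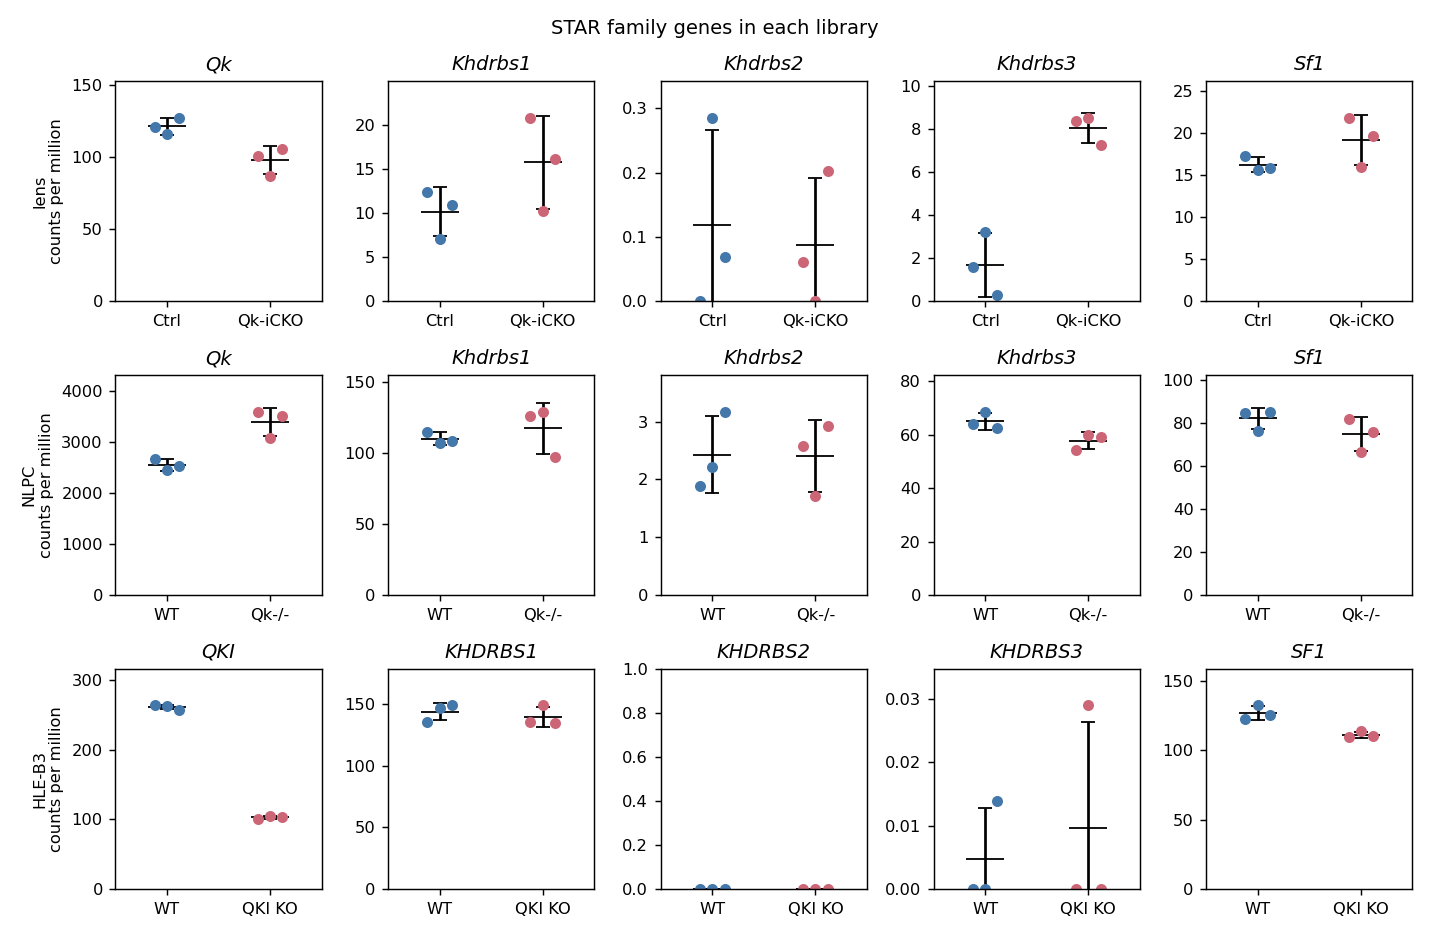
Expression of the 5 STAR family genes in each library, in CPM on a linear axis from 0 that is scaled separately in each panel. Points are libraries, the horizontal line is the group mean and the bars are ± 1 SD (n = 3); rows are the lens, the NLPCs and HLE-B3 cells. The 3 *Qk*-iCKO lenses sit between 7.27 and 8.52 CPM of *Khdrbs3*, above the 3 Ctrl lenses at 0.275 to 3.21 CPM.

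In the lens, *Khdrbs3* was the paralog with the largest difference, 4.77 times higher in *Qk*-iCKO than in Ctrl lenses. Its adjusted p was just above the threshold of 0.05, and it passed the filter on low counts through the *Qk*-iCKO lenses. *Khdrbs1* and *Sf1* differed by less than their spread allowed to call, *Khdrbs2* was at 0 to 4 counts, and *Qk* itself was at 80.7% of the Ctrl level without passing the test. The test was run on 12201 genes, of which 12.3% were called at an adjusted p under 0.05, 8.38% as higher and 3.88% as lower in *Qk*-iCKO lenses. Of the 5 STAR family genes 4 were tested and 0 were called in edgeR; 1 had an unadjusted p under 0.05, and DESeq2 called 1, in both cases *Khdrbs3*. With same-numbered lenses as blocks, edgeR called 2 of the 4 higher, *Khdrbs1* and *Khdrbs3*, beside 1391 of all 12201 genes tested. DESeq2 called 1419 of 24894 genes higher. The pairing of same-numbered lenses was taken from correlations in these same counts and is not given by the labels. The blocked calls are therefore a description. The Ctrl and *Qk*-iCKO ranges did not overlap for 2 of the 4, *Qk* and *Khdrbs3*, nor for 35.3% of all genes tested.

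*Qk* was at 120, 116 and 127 CPM in the Ctrl lenses and at 100, 86.9 and 106 CPM in the *Qk*-iCKO lenses, from 1453, 1625 and 1852 counts against 1637, 898 and 1048. All 3 *Qk*-iCKO lenses lay below all 3 Ctrl lenses, as did those of 17.1% of the genes tested. Its log2 fold change was −0.31 (standard error 0.14, 95% interval −0.64 to 0.021, adjusted p = 0.20). Scaling to total counts alone gave −0.010 and moved the median over all genes tested from 0.0064 to 0.29, so that *Qk* lay below that median under both scalings. The interval runs from 64.2 to 101% of the Ctrl level in these whole lenses, where fewer cells with *Qk* and less *Qk* RNA per cell cannot be told apart. By protein staining, the paper reports nearly complete loss of the Qki-5 isoform in lens cells marked by a Cre reporter, and a smaller decrease of Qki-6.

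*Khdrbs3* lies on chr15:68928420-69101211 of GRCm38. It had 19, 45 and 4 counts in the Ctrl lenses and 136, 88 and 72 in the *Qk*-iCKO lenses, or 1.57, 3.21 and 0.275 CPM against 8.35, 8.52 and 7.27 CPM. The *Qk*-iCKO lenses were close to each other and above every Ctrl lens, as in 18.2% of the genes tested, whereas the Ctrl lenses ranged over a factor of 11.7. With 4 counts in Ctrl lens 3, the Ctrl lenses alone would not have passed the filter on low counts. *Khdrbs3* was thus tested because the *Qk*-iCKO lenses passed it. The log2 fold change was 2.25 (standard error 0.61, 95% interval 0.83 to 3.68, unadjusted p = 0.0069, adjusted p = 0.0535 in edgeR), and 4.26% of the genes tested had a higher one. When same-numbered lenses were blocked together, a pairing taken from these same data, it was 2.46 with an adjusted p of 0.0177. DESeq2 gave 2.24 with an adjusted p of 0.0025. Without Ctrl lens 2 it was 3.15 (adjusted p = 0.0371) and without Ctrl lens 3 it was 1.73 (adjusted p = 0.0399), while leaving out any of the other 4 lenses kept the adjusted p above 0.05, up to 0.168.

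Some lists of genes of other cell types differed between the groups beside *Khdrbs3*, and others overlapped. The 9 macrophage genes summed to 2.32 to 4.26 CPM in Ctrl and 103 to 143 CPM in *Qk*-iCKO lenses; *Aif1* and *Cx3cr1* were too low in both groups to be tested, and the other 7 passed the filter on low counts through the *Qk*-iCKO lenses, so no count of calls is given. The 4 endothelial genes summed to 3.65 to 6.93 CPM in Ctrl and 10.8 to 21.7 CPM in *Qk*-iCKO lenses. *Tek* was called higher, beside 8.38% of all genes tested. *Pecam1* passed the filter through the *Qk*-iCKO lenses, so its call is not counted. The 8 photoreceptor genes summed to 83.5, 617 and 2.68 CPM in Ctrl lenses 1, 2 and 3 and to 14.5 to 90.6 CPM in the *Qk*-iCKO lenses, with 0 of the 7 tested called. The 8 neuronal genes summed to 32.6, 57.2 and 18.5 CPM in Ctrl lenses 1, 2 and 3 and to 19.6 to 29.8 CPM in the *Qk*-iCKO lenses, with 0 called. The 5 melanocyte and pigment epithelium genes summed to 3.50 to 6.92 CPM in Ctrl and 6.87 to 137 CPM in *Qk*-iCKO lenses, with 0 called. The 7 fibroblast genes summed to 77.4 to 105 CPM in Ctrl and 110 to 180 CPM in *Qk*-iCKO lenses. Of the 5 tested, only *Pdgfrb* had a lower mean (17.3 against 7.70 CPM). *Col3a1* passed the filter through the *Qk*-iCKO lenses, so its call is not counted. Of the 7 astrocyte and neural stem cell genes (46.3 to 62.3 and 60.9 to 100 CPM) *Nes* was called higher. The part of these cells in the *Khdrbs3* difference was not tested.

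*Khdrbs1*, on chr4:129703164-129742303, was at 12.4, 7.06 and 10.9 CPM in Ctrl and 20.8, 10.3 and 16.2 CPM in *Qk*-iCKO lenses. The groups overlapped, since *Qk*-iCKO lens 2 lay below Ctrl lenses 1 and 3. On the log2 scale the difference was 0.64 (standard error 0.30, 95% interval −0.057 to 1.34, adjusted p = 0.207). Blocking by the number of the lens, a pairing taken from these same data, gave 0.62 with an adjusted p of 0.0302, which is past the threshold. *Qk*-iCKO lens 1 was also set alone against the 3 Ctrl lenses, which leaves out both lenses with Y-linked counts. This setting was chosen after seeing the data and takes the lone lens to vary like the Ctrl lenses. The lone lens is the one with the TMM factor of 1.48. *Khdrbs1* was at 1.03 and *Khdrbs3* at 2.29 on the log2 scale, and no call is read from 1 lens.

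*Sf1*, on chr19:6363690-6378030, was at 17.3, 15.6 and 15.9 CPM in Ctrl and 21.8, 16.0 and 19.7 CPM in *Qk*-iCKO lenses. The groups overlapped, and on the log2 scale they differed by 0.24 with a standard error of 0.16 (adjusted p = 0.362). Its exons overlap the antisense gene *Gm14966*, which had 3 to 10 counts per lens against 165 to 356 for *Sf1*. *Khdrbs2* had 0, 4 and 1 counts in Ctrl and 1, 0 and 2 in *Qk*-iCKO lenses, too few to be tested; a count of 0 in a lens allows up to 0.183 to 0.302 CPM, which covers counting error only.

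Per kb of exon, *Qk* was the highest of the 5 genes in the Ctrl lenses at 8.50 ± 0.398 (SD, n = 3), followed by *Sf1* at 2.62 ± 0.149, *Khdrbs1* at 1.58 ± 0.431, *Khdrbs3* at 0.46 ± 0.401 and *Khdrbs2* at 0.011 ± 0.014 CPM per kb. No neighbours in that order overlapped. In the *Qk*-iCKO lenses *Qk* was still the highest at 6.86 ± 0.684 CPM per kb. *Sf1* (3.09 ± 0.478), *Khdrbs1* (2.45 ± 0.823) and *Khdrbs3* (2.20 ± 0.185) followed with overlapping ranges between neighbours. Of the summed level of the 5 genes, a ratio within each library that does not depend on the scaling of libraries, *Qk* made up 62.1, 64.3 and 67.3% in the Ctrl lenses and 43.8, 48.4 and 49.1% in the *Qk*-iCKO lenses. The other 4 genes together were at 5.15, 4.52 and 4.33 CPM per kb in Ctrl and 9.04, 6.50 and 7.69 CPM per kb in *Qk*-iCKO lenses.

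**Figure D2:**
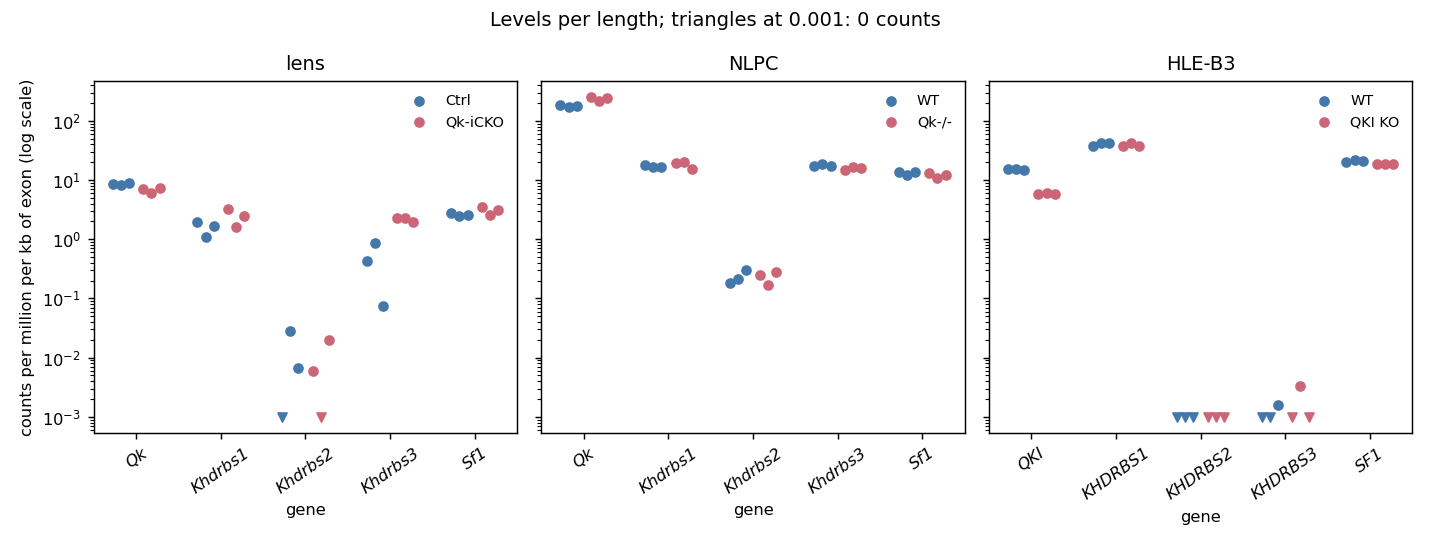
Level of each gene per library in CPM per kb of merged exons, on a log axis, with control libraries in blue and deletion libraries in red. Triangles at the bottom are libraries with 0 counts, and points are libraries (n = 3 per group). *Qk* is the highest of the 5 genes in both mouse systems, and *KHDRBS1* is the highest in HLE-B3 cells.

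In the NLPCs, *Qk* was far above its relatives, and its counts were higher, not lower, in the libraries labelled *Qk*-/-. Of the other 4 genes 0 passed the test in edgeR in either direction, 0 had an unadjusted p under 0.05 and DESeq2 called 0. Of the 20371 genes tested, 10.7% were called (4.74% higher and 5.96% lower with the *Qk*-/- label), and 1 of the 5 STAR family genes, *Qk*, was among those called. Directions are those of the labels, which a count per gene cannot check because transcripts without exon 2 are counted too. For the protein, the paper reports from immunofluorescent staining that Qki was entirely lost in the neural stem cells and NLPCs once deletion was induced. The labels do not tie the sequenced libraries to the stained cells.

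*Qk* was at 2675, 2444 and 2541 CPM in the WT libraries and at 3599, 3088 and 3510 CPM in the libraries labelled *Qk*-/-, all above WT, an order that 15.9% of the genes tested showed. Expressed on the log2 scale, *Qk* was higher by 0.41 (standard error 0.091, 95% interval 0.20 to 0.62, adjusted p = 0.027), which corresponds to 133% of the WT level. It stayed between 0.37 and 0.48 with each library left out, but the adjusted p was 0.103 without WT 1, 0.107 without WT 2, 0.173 without WT 3, 0.126 without *Qk*-/- 1 and 0.0949 without *Qk*-/- 3. Without *Qk*-/- library 2, the library that stood apart, it was 0.48 with an adjusted p of 0.0026. Marker sums of other cell types differed as well. The 7 astrocyte and neural stem cell genes summed to 6850 to 7191 CPM in WT and 4320 to 5033 CPM in the libraries labelled *Qk*-/- (1 higher and 3 lower of 7). The 8 oligodendrocyte genes summed to 1032 to 1177 and 597 to 951 CPM, mostly *Olig1* and *Olig2*. The 8 neuronal genes summed to 1254 to 1327 and 1565 to 1692 CPM, mostly *Map2* (means of 1236 and 1569 CPM). Of the 8, only *Tubb3* had a lower mean with the *Qk*-/- label (36.2 against 19.5 CPM). Their part in the *Qk* difference was not tested.

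*Khdrbs3* was at 64.0, 68.7 and 62.7 CPM in WT and 54.3, 59.9 and 59.3 CPM in the libraries labelled *Qk*-/-. The groups did not overlap, which held for 35.2% of the genes tested (deletion group lower in 19.3%), and the log2 fold change was −0.17 (standard error 0.090, 95% interval −0.38 to 0.035, adjusted p = 0.264). *Khdrbs1* was at 115, 107 and 109 CPM in WT and 126, 129 and 97.1 CPM in the libraries labelled *Qk*-/-, with a log2 fold change of 0.091 (95% interval −0.19 to 0.37, adjusted p = 0.668). The third of those libraries lay below all WT libraries and the other two above them. *Sf1* was at 84.9, 76.5 and 85.5 against 82.2, 66.7 and 75.9 CPM (log2 fold change −0.13, 95% interval −0.38 to 0.11, adjusted p = 0.45); its antisense neighbour *Gm14966* had 56 to 150 counts where *Sf1* had 1951 to 5876. *Khdrbs2* was the lowest member, at 1.89, 2.22 and 3.17 against 2.58, 1.71 and 2.92 CPM from 50 to 218 counts. Its log2 fold change of −0.010 had a 95% interval of −0.80 to 0.78, so changes of either sign within those bounds remain possible.

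Per kb, *Qk* was at 179 ± 8.14 (SD, n = 3) in the WT NLPCs, and 99.4% of the genes tested were lower. *Khdrbs3* (17.8 ± 0.863) and *Khdrbs1* (17.2 ± 0.679) overlapped, *Sf1* (13.3 ± 0.812) lay below both and *Khdrbs2* was at 0.236 ± 0.065 CPM per kb. With the longest transcript as the length, *Khdrbs1* lay above *Khdrbs3* without overlap. In the libraries labelled *Qk*-/- the levels were 239 ± 19.2 for *Qk*, 18.3 ± 2.77 for *Khdrbs1*, 15.8 ± 0.835 for *Khdrbs3*, 12.1 ± 1.26 for *Sf1* and 0.234 ± 0.061 CPM per kb for *Khdrbs2*, with overlap between *Khdrbs1* and *Khdrbs3*. *Qk* made up 78.2 to 79.2% of the summed level in WT and 82.1 to 84.9% in the libraries labelled *Qk*-/-. For comparison, the Ctrl lens had 8.50 CPM per kb of *Qk*, or 22.2 counts per kb when scaled to 1000000 counts outside the crystallin genes; the tables were normalized separately and the level difference between tissues was not tested.

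The deletion effects in the 2 mouse systems were compared in a single fit of 16675 genes, in which 8.53% differed between systems at an adjusted p under 0.05. Of the 5 members, 2 were among them. For *Qk*, the effect in NLPCs exceeded that in the lens by 0.82 on the log2 scale (standard error 0.20, adjusted p = 0.0237). For *Khdrbs3*, it was lower by 2.34 on the log2 scale (standard error 0.55, adjusted p = 0.0209). The differences for *Khdrbs1* (−0.45, 95% interval −1.22 to 0.32, adjusted p = 0.484) and *Sf1* (−0.28, 95% interval −0.68 to 0.12, adjusted p = 0.396) did not pass, and *Khdrbs2*, with at most 4 counts per lens, had a difference of 0.61 with a 95% interval of −2.14 to 3.37. The *Qk* difference was no longer called with total counts alone (0.47, adjusted p = 0.38) or without the filter on low counts (0.77, adjusted p = 0.175), and its adjusted p reached 0.0832 with a library left out; that of *Khdrbs3* reached 0.0625.

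In HLE-B3 cells, *QKI* fell to 39.4% of the WT level in *QKI* KO cells, *SF1* fell to 87.7% and *KHDRBS1* did not pass the test. *KHDRBS2* and *KHDRBS3* were at 0 to 2 counts in every library. Of the 19049 genes tested, 33.3% were called, 17.0% higher and 16.3% lower; 3 of the 5 STAR family genes were tested, 2 were called lower and 0 higher. At an unadjusted p under 0.05 and in DESeq2 the number of members higher was also 0.

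*QKI*, on chr6:163835032-163999624 of GRCh37, was at 263, 262 and 257 CPM in WT and 100, 105 and 103 CPM in *QKI* KO cells. The log2 fold change was −1.34 (standard error 0.054, 95% interval −1.46 to −1.23, adjusted p = 1.85e-11), and the KO libraries lay far below the WT libraries. From 7273 to 7522 counts per KO library were still assigned to *QKI*; a count per gene does not show which exons they came from.

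*SF1*, on chr11:64532078-64546258, was at 122, 132 and 125 CPM in WT and 110, 114 and 110 CPM in *QKI* KO cells, without overlap, as for 44.6% of the genes tested (22.6% lower and 22.0% higher in *QKI* KO cells). The difference was −0.19 on the log2 scale (standard error 0.057, 95% interval −0.31 to −0.068, adjusted p = 0.017). The adjusted p was 0.0892 without WT 2, 0.0849 without *QKI* KO 1 and 0.107 without *QKI* KO 3. *KHDRBS1*, on chr1:32479469-32526451, was at 136, 147 and 149 CPM in WT and 136, 149 and 134 CPM in *QKI* KO cells, with a log2 fold change of −0.043 and a 95% interval from −0.17 to 0.088 (adjusted p = 0.66). The interval corresponds to 88.6 to 106% of the WT level.

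*KHDRBS2* had 0 counts in all 6 libraries, where a count of 0 allows up to 0.0367 to 0.0434 CPM. *KHDRBS3*, the human counterpart of the gene with the largest difference in the lens, had 0, 0 and 1 counts in WT and 0, 2 and 0 in *QKI* KO cells. Both were thus at or under that limit in both groups, and no fold change is given. Per kb, *KHDRBS1* led with 40.6 ± 2.01 (SD, n = 3), followed by *SF1* at 21.2 ± 0.851 and *QKI* at 15.0 ± 0.197 CPM per kb in WT cells. In *QKI* KO cells the order was the same, at 39.4 ± 2.27, 18.6 ± 0.349 and 5.92 ± 0.146 CPM per kb, and no neighbours among these 3 genes overlapped in either group. *QKI* made up 19.0 to 20.5% of the summed level in WT and 9.04 to 9.50% in *QKI* KO cells, while the other 4 genes together were at 58.8, 63.6 and 63.0 CPM per kb in WT and 56.7, 61.0 and 56.3 CPM per kb in *QKI* KO cells.

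**Figure D3:**
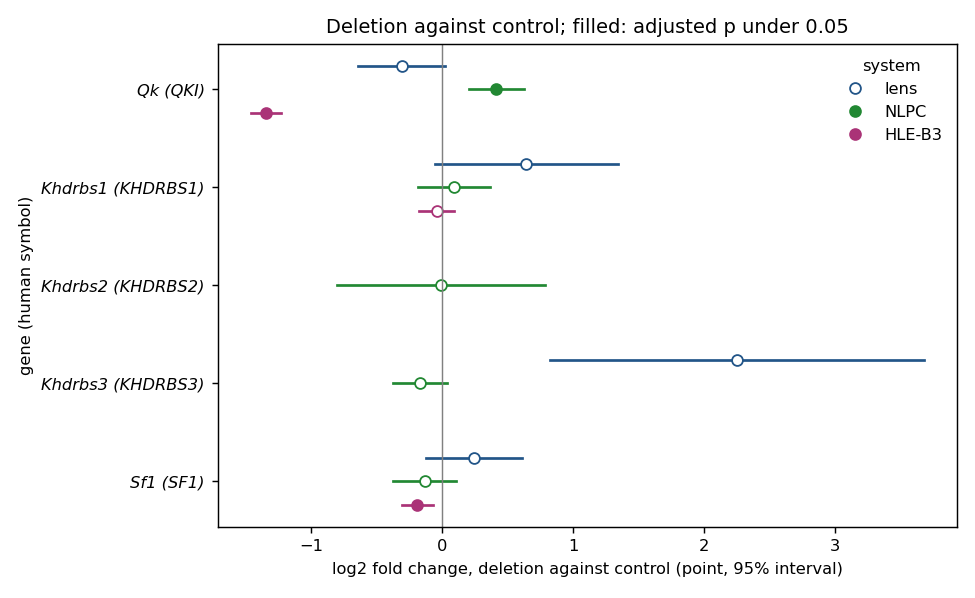
Log2 fold change of each gene, deletion against control, in the lens, the NLPCs and HLE-B3 cells, with 95% intervals from the edgeR fit; filled points have an adjusted p under 0.05. Genes with too few counts have no point. *QKI* is at −1.34 in HLE-B3 cells, *Khdrbs3* at 2.25 in the lens with the widest interval, and *Qk* at 0.41 in the NLPCs.

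**Figure D4:**
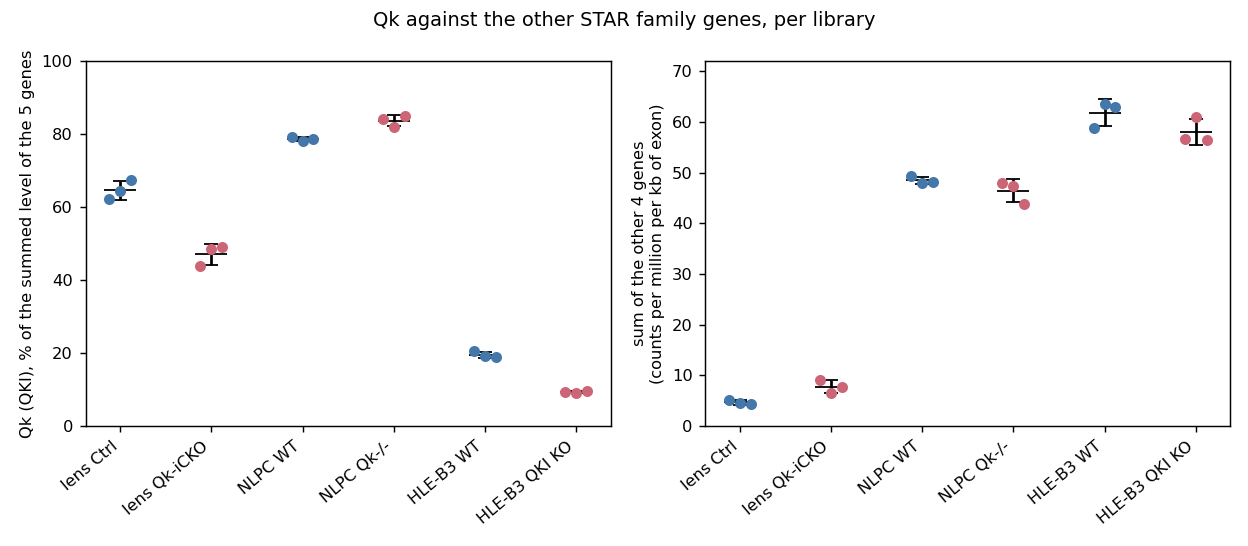
Left, the percentage that *Qk* (*QKI*) makes up of the summed level of the 5 genes per kb in each library; right, the summed level of the other 4 genes in CPM per kb. Points are libraries, lines and bars the mean ± 1 SD (n = 3). The share is lower in all 3 *Qk*-iCKO lenses and all 3 *QKI* KO libraries than in their controls, and higher in the 3 NLPC libraries labelled *Qk*-/-.

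Genes that act beside the members were described from 4 lists, whose counts are to be read beside the shares of all genes tested that were called: 8.38% higher and 3.88% lower in the lens, 4.74% and 5.96% in the NLPCs, and 17.0% and 16.3% in HLE-B3 cells. The 18 branch point recognition genes, partners of SF1, had 0 called in the lens and 0 in the NLPCs in edgeR. At an unadjusted p under 0.05 there were 0 higher and 1 lower in the lens and 1 higher and 4 lower in the NLPCs, and DESeq2 called 0 in the lens and 1 higher and 1 lower in the NLPCs. The median log2 fold change was −0.11 in the lens and −0.18 in the NLPCs, beside 0.0064 and 0.040 over all genes tested. In *QKI* KO HLE-B3 cells 7 of the 17 tested were higher and 1 was lower, with a median of 0.18 beside −0.020 over all genes tested. *U2AF2*, which binds the polypyrimidine tract next to SF1, was higher (205 ± 9.06 against 282 ± 10.6 CPM, SD, n = 3; log2 fold change 0.46), as were the helicase gene *DHX15* (0.39) and *SF3B5* (0.38), while *SF3A1* was lower (−0.30).

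Of the other genes with KH domains, 0 of 29 tested were higher and 2 lower in *Qk*-iCKO lenses, namely the poly(C)-binding *Pcbp4* (−0.49) and *Mex3b* (−0.84), with a median of −0.065. In the NLPC libraries labelled *Qk*-/-, 1 of 30 was higher, *Pcbp3* (0.90), and 7 were lower, led by the splicing regulator *Nova1* (122 ± 4.04 against 65.3 ± 1.96 CPM; log2 fold change −0.91), *Igf2bp3* (−0.90) and *Pno1* (−0.70), with a median of −0.12. In *QKI* KO cells 5 of 28 were higher and 7 lower, with a median of −0.049. *BICC1* had the largest difference (52.8 ± 2.85 against 12.6 ± 1.46 CPM; −2.07), followed among the lower genes by *MEX3C* (−0.78) and *PCBP2* (−0.54), and *MEX3B* (0.48), *PNO1* (0.29) and *PNPT1* (0.20) were the most different of the higher ones.

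Of the mRNAs commonly described as bound or regulated by Qki, 11 were tested in the lens, with a median of 0.073, and 0 were lower. *Csf1r* was at 1.15 ± 0.576 against 32.4 ± 6.56 CPM, a log2 fold change of 4.78. It is among the macrophage genes above that passed the filter on low counts through the *Qk*-iCKO lenses, so its call is not counted. In the NLPC libraries labelled *Qk*-/-, the water channel gene *Aqp4* (0.74) and *Foxo1* (0.62) were higher and the astrocyte filament gene *Gfap* (1391 ± 145 against 536 ± 149 CPM; −1.38) and *Sirt2* (−0.83) were among the 3 lower ones, of 13 tested, with a median of −0.10; *Aqp4* and *Gfap* are also in the glial marker lists above. In *QKI* KO cells *HNRNPA1* (0.33) was higher and *CSF1R* (−1.25), *EGR2* (−0.57) and *CTNNB1* (−0.20) were lower, of 12 tested, with a median of 0.0049. Of the signalling partners of Sam68, 1 of 9 was higher in the lens, *Stat3* (16.1 ± 1.73 against 46.5 ± 8.45 CPM; 1.53), with a median of 0.47. In the NLPCs 0 of 11 were called in edgeR (0 higher and 2 lower at an unadjusted p under 0.05, 1 lower in DESeq2), with a median of −0.14. In *QKI* KO cells 3 were higher, among them *NCK1* (0.32) and *PRMT1* (0.25), and 2 were lower, *PLCG1* (−0.24) and *FYN* (−0.22), of 10 tested, with a median of −0.080.

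The genes whose levels followed *Qk* most closely were ranked by Pearson's r over the 12 mouse libraries after the mean of each system was subtracted, among 11225 genes tested in both tables. *Prkca* (0.96), *Tob1* (0.96), *Irs1* (0.96), *Tshz2* (0.95) and *Zfp526* (0.93) led. These values are a description: the libraries share a group, a table and a library size, and the 12 points fall into groups that differ in *Qk*. *Prkca*, which encodes protein kinase C alpha, had a log2 fold change of −0.58 in the lens and 0.54 in the NLPCs. These directions follow from the choice of genes that track *Qk* in the same libraries, so no test of them is given. Among the members, r with *Qk* was −0.11 for *Khdrbs1*, −0.24 for *Sf1* and −0.59 for *Khdrbs3*. In the 6 HLE-B3 libraries, which form 2 separate groups in *QKI*, the 5 closest of 19048 genes were *C1RL-AS1*, *MORF4L2*, *KLHDC4*, *IL1R1* and *RPS6KA6*, and r is not given for them because it rests on the distance between the groups. *KLHDC4* (−1.12) and the interleukin-1 receptor gene *IL1R1* (−1.47) were lower in *QKI* KO cells, and *MORF4L2* was at −0.082 (adjusted p = 0.246).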

How the data were processed

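Stranded RNA-seq was deposited for 18 libraries. Per the study's methods and the submitters' processing notes, the authors aligned reads with 2-pass STAR 2.6.1b to mm10 or hg19 and counted them per gene with HTSeq 0.11.0; the notes also name HISAT2 2.0.4 and featureCounts, with no role given. The authors deposited 3 tables of raw read counts, not normalized; 0 columns were left unused. Reads were counted by gene, so the values do not separate isoforms.

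In each table, genes passed edgeR's filterByExpr (minimum count 10, minimum total 15), library sizes were scaled by TMM, and deletion was compared with control by edgeR 4.0.16's quasi-likelihood test in R 4.3.3, with Benjamini-Hochberg adjustment over all genes tested (12201, 20371 and 19049). The mouse systems were compared by the interaction of system and deletion. DESeq2 1.42.0, other scalings and filters, and each library left out were alternatives, and CPM in the text are TMM-scaled. Lengths and positions are from GENCODE vM21 (GRCm38) and v44lift37 (GRCh37). All pairs of libraries differed by more than counting noise.

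The replicate numbers were taken to pair the libraries in the lens and the NLPCs, from the data: deviations from the group means correlated across genes between same-numbered libraries at 0.233, 0.133 and 0.523 in the lens and 0.123, 0.320 and 0.145 in the NLPCs. The labels do not say what a number marks.

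The members and lists were chosen with earlier results of these data known. The genes named were the 5 members, up to 3 higher and 3 lower genes per list and system by size of log2 fold change, the 5 genes most like *Qk* or *QKI*, and genes overlapping a member. Some genes that this rule would name are not reported here.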

Additional observations from a re-analysis of the deposited data

Results flagged for a closer look

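2 results differed between the lens and the NLPCs in the test of the difference itself, the interaction of system and deletion in edgeR. For *Qk*, the deletion effect in the NLPCs minus that in the lens was 0.82 on the log2 scale (standard error 0.20, adjusted p = 0.0237). It combines −0.31 in the lens, where all 3 *Qk*-iCKO lenses were below all 3 Ctrl lenses, with 0.41 in the NLPCs, where all 3 libraries labelled *Qk*-/- were above all 3 WT libraries. For *Khdrbs3*, the same difference was −2.34 (standard error 0.55, adjusted p = 0.0209), from 2.25 in the lens and −0.17 in the NLPCs. All 3 libraries of the deletion group were higher in the lens and lower in the NLPCs. The groups did not overlap for 35.3% of all genes tested in the lens and 35.2% in the NLPCs, and 8.53% of 16675 genes passed the interaction test. In the lens *Khdrbs3* passed the filter on low counts through the *Qk*-iCKO lenses. The *Qk* difference was 0.47 with total counts alone (adjusted p = 0.38) and 0.77 without the filter on low counts (adjusted p = 0.175). When single libraries were dropped, the adjusted p reached 0.0832 for *Qk* and 0.0625 for *Khdrbs3*. The 2 systems also differ in cell composition, deletion protocol and depth, and the part of these in the differences was not tested.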

How the results depend on the processing

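The direction of *QKI* in HLE-B3 cells and of *Khdrbs3* in the lens was kept under every alternative run. In the lens, 1496 genes were called; with total counts alone there were 884, without the filter on low counts (every gene) 2521, and 3696 without the 2 *Qk*-iCKO lenses with Y-linked counts, a setting chosen after seeing the data. The number of members higher, 0, became 1 with every gene (*Khdrbs3* 2.24), 1 in DESeq2 (2.24), 2 with the replicate block (*Khdrbs1* 0.62, *Khdrbs3* 2.46) and 1 without those 2 lenses (*Khdrbs1* 1.03). In the NLPCs, 2179 genes were called and 3826 in DESeq2. With every gene, 0 members were called and *Qk* was at 0.39 (adjusted p = 0.203). *Khdrbs2*, at −0.010, turned to 0.0054 with RLE size factors and 0.032 with total counts alone. Of the 2 interactions, that of *Qk* was lost with total counts alone (0.47, adjusted p = 0.38) and with every gene (0.77, adjusted p = 0.175), which left 1 past the threshold in each, *Khdrbs3*.

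Less the median of the 50 nearest genes, the log2 fold changes were −0.14 for lens *Qk*, 0.31, −0.40, −0.71 and 0.077 for NLPC *Qk*, *Khdrbs2*, *Khdrbs3* and *Sf1*, and −1.20, 0.090 and −0.37 for *QKI*, *KHDRBS1* and *SF1*. The cause of these shifts was not tested.

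With each library left out, the genes called ranged from 581 to 1709 in the lens and 681 to 3797 in the NLPCs. Members higher ranged from 0 to 1 in both, and members lower in HLE-B3 cells from 1 to 2. The log2 fold changes ranged from 1.73 to 3.15 for lens *Khdrbs3*, 0.37 to 0.48 for NLPC *Qk*, −0.19 to 0.22 for NLPC *Khdrbs2* (0.18 without *Qk*-/- 2) and −0.20 to −0.15 for *SF1*. The interactions ranged from 0.71 to 0.86 for *Qk*, −3.28 to −1.85 for *Khdrbs3* and −1.07 to 1.75 for *Khdrbs2*, and 0 to 2 members passed. The *Qk* interaction had an adjusted p of at most 0.0832 and that of *Khdrbs3* of at most 0.0625.

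The replicate block changed no other call of a member. In HLE-B3 cells, same-numbered libraries correlated at 0.061, 0.057 and −0.049, so the numbers were not taken to pair them; *SF1* was at −0.19 with the block (adjusted p = 0.0377). List counts moved by over 1.5 times in some alternatives, over ranges of 0 to 4 (lower, lens) and 2 to 11 (lower, NLPC) for the KH domain genes, 2 to 5 (higher, HLE-B3) for the same list and 0 to 3 for the other counts that moved, except 2 to 5 (lower, HLE-B3) for Qki-bound mRNAs.

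*Khdrbs2* in the lens and *KHDRBS2* and *KHDRBS3* in HLE-B3 cells were too shallow for a test. No gene-level value separates transcripts with exon 2 from those without it.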

Other observations

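Qki binds RNA at a core element whose letters are ACTAAC or ACTAAT in DNA. In the longest protein-coding transcript of each gene (GENCODE, sense strand, both forms added), *Qk* itself held 7 in 8547 bases, and 2.44% of the 573 other mouse genes with a transcript within 10% of that length held at least as many; 84.5% of them held any. Human *QKI* also held 7, in 9384 bases, as many as or fewer than 6.20% of 645 genes of like length. *Khdrbs3* held 1 in 1887 bases, which 32.4% of genes of like length matched or exceeded, *Khdrbs2* held 2 and *Sf1* 1, and *Khdrbs1* held 0 in 3738 bases, where 54.3% of like transcripts held any. A match is only a run of letters, and no binding was measured here.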
